A study of Mus musculus with 16 samples.

Results

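Control line 2 is a closed breeding population of mice that was not selected for running, and its vomeronasal organs were sequenced as 1 male pool and 1 female pool. Both libraries were chosen by their labels, so that 2 of the 16 libraries of the series belong to line 2. They were set against the 6 libraries of Control lines 1, 4 and 5, again 1 male and 1 female pool of each line. The 8 libraries of the High Runner (HR) lines 3, 6, 7 and 8, which were bred for high voluntary wheel running, served only to place the levels of the genes found. All lines descend from outbred Hsd:ICR mice, were at generation 88, and gave organs from 12-week-old animals, 3 per pool. Parents of the Control lines were picked at random within families, so a line is a single population carried on separately, and each of its pools held different animals. The male and female libraries stand in separate tables, so that sex and table cannot be told apart. Line 2 had 53348993 counts on genes in males and 18475375 in females, and the other Control libraries had 15998552 to 70875276. The HR libraries had 26301664 to 46384480. *Xist* and *Ddx3y* went with the labelled sex in both line 2 pools, at 0.392 and 44.7 counts per 1000000 counts (CPM) in males and 1720 and 0.206 CPM in females.

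The vomeronasal organ is a paired tube in the nasal septum that detects pheromones and other chemical signals. Its sensory neurons carry receptors of the V1R and V2R families (*Vmn1r*, *Vmn2r*) or formyl peptide receptors (*Fpr*), and each neuron uses very few of them. Small closed lines drift apart in allele frequencies over generations, so a gene can come to be read at different levels in lines that were never selected for it. *Omp*, olfactory marker protein of mature sensory neurons, stood at 2600 CPM in the male and 2120 CPM in the female pool of line 2, against 1260 to 2290 CPM in the other Control libraries. *Trpc2*, the main transduction channel of these neurons, had a count of 0 in all 16 libraries but 417 RPKM in the male and 382 RPKM in the female pool of line 2, so its counts were not usable. The other Control libraries had 263 to 381 RPKM for it.

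Of 16852 genes tested, 20 (0.119%) differed between line 2 and the other Control lines at an adjusted p under 0.05 (edgeR quasi-likelihood test, table as covariate). Line 2 was higher for 15 of them and lower for 5. All 20 lay beyond the 3 other Control libraries of the same table in both pools, and 17 of them by at least 1 log2 unit in both. The fit favours genes whose pools agree, so this agreement is partly set by the choice of genes. At an unadjusted p under 0.05 there were 1540 genes (9.14%). The same contrast made for each of the other Control lines called 16 genes for line 1 (0.0949%), 28 for line 4 (0.166%) and 12 for line 5 (0.0712%), so the number for line 2 lay within the range of the other lines. The calls rest on both pools, since only 1 gene was called without the male and 2 without the female library of line 2. Libraries of the same line also resembled each other, with a fitted correlation of 0.41. With the line as a random effect 12 genes were called, 10 of them among the 20, and with counts summed to 1 sample per line 0 were called by edgeR, with 895 at an unadjusted p under 0.05.

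**Figure D1:**
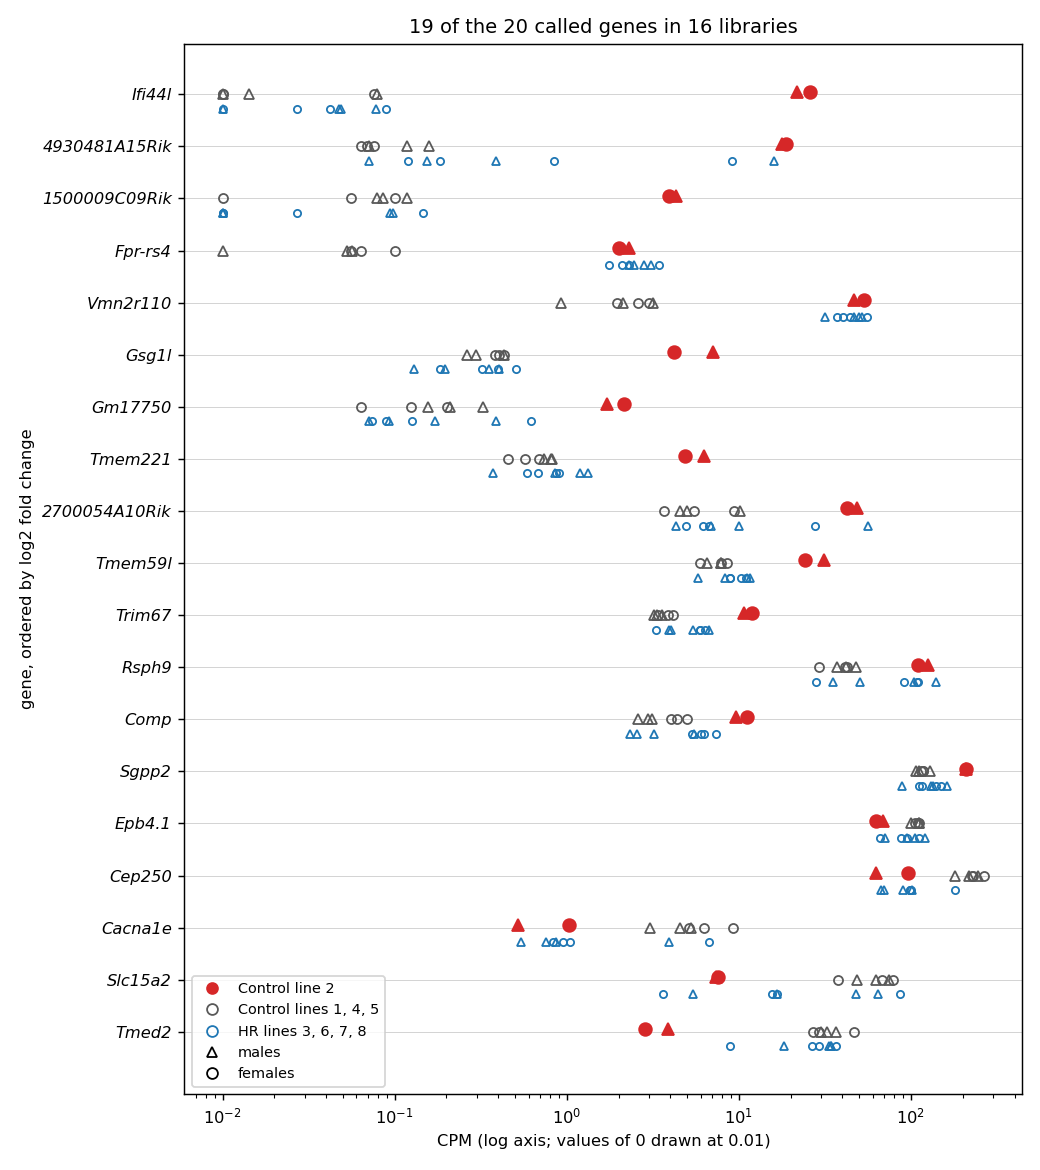
Of the 20 called genes, 19 in CPM on a log axis, with triangles for male and circles for female pools. Filled red symbols are line 2, open grey symbols the 6 other Control libraries and open blue symbols the 8 HR libraries. Red symbols stand clear of the grey ones in every row, and in the rows of *Fpr-rs4* and *Vmn2r110* the blue symbols lie with the red.

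*Ifi44l*, an interferon-inducible gene (chr3:151758737-151762892, minus strand), showed the widest gap. It had 1174 counts in the male and 505 in the female pool of line 2, which is 21.9 and 26.0 CPM. The 6 other Control libraries held 0 to 3 counts each, 7 in all, with 3 of them at 0. The summed CPM ratio was 859, with a 95% interval of 416 to 2140 that covers counting error only. The fitted log2 fold change of 9.61 ± 0.61 (SE) depends on the prior count at such low levels, with an adjusted p of 0.00325. HR libraries also lay at 0 to 0.0894 CPM, so line 2 alone had a clear signal among the 16 libraries. No annotated gene overlaps *Ifi44l*, and none of its 75-base windows occurs in a transcript of another gene.

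No gene of the interferon-response list was called. The list held 15 genes, without *Ifi44l* among them, all 15 were tested, and their median log2 fold change was -0.12, against 0.00 over all genes tested. At an unadjusted p under 0.05, 2 were higher and 2 lower. The higher ones were *Bst2*, which encodes the virus-tethering protein tetherin, and *Ifi44*, the paralogue of *Ifi44l*. *Bst2* had 37.6 and 37.2 CPM in the male and female pools of line 2 and 10.9 to 19.7 CPM elsewhere in the Control lines, but an adjusted p of 0.0937. *Ifi44* had 13.7 and 19.1 CPM against 5.31 to 11.1 CPM, with an adjusted p of 0.353. Both genes lie close to called genes on the chromosome, *Ifi44* beside *Ifi44l* (chr3:151730922-151749960) and *Bst2* beside *Tmem221* (chr8:71534255-71537456). *Ifit3* and *Oas2*, both induced by interferon in the antiviral response, were the lower ones, at log2 fold changes of -1.91 and -0.76. *Ifit3* had 1.21 and 1.03 CPM against 1.04 to 6.73 CPM (adjusted p of 0.531), and its female pool was level with Control line 1 females at 1.04 CPM. *Oas2* had 13.7 and 21.5 CPM against 17.9 to 39.8 CPM (adjusted p of 0.468). *Oasl2*, of the same antiviral family as *Oas2*, had 84.0 and 86.4 CPM within a Control range of 67.2 to 101 CPM.

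The reference promoters of *Ifi44l* and *Bst2* are shown because the interferon-stimulated response element is the known control site of this pathway. Each holds 250 bases before and 50 after the RefSeq start on GRCm38.p6, at chr3:151762842-151763141 and chr8:71537423-71537722, both on the minus strand. They are the sequence of the reference strain and not of line 2. Capitals mark matches to the letters GAAA repeated after a spacer of any 2 bases, searched on either strand.
Ifi44l: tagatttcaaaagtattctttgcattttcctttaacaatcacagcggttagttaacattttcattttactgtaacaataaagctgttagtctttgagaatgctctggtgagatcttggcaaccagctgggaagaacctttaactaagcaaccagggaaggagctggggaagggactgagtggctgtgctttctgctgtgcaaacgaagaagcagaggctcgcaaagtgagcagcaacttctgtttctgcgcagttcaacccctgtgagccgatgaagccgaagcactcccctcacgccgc
Bst2: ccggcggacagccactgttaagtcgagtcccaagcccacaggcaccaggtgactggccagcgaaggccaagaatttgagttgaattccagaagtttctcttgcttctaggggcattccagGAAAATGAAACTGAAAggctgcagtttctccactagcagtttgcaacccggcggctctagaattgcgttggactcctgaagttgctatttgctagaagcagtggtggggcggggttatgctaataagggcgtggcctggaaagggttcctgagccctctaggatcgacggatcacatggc
The *Bst2* window holds 2 overlapping matches, starting at bases 121 and 127, while these letters are not in the *Ifi44l* window. The motif occurs in 1131 of 32851 promoter windows of the same length (3.44%).

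**Figure D2:**
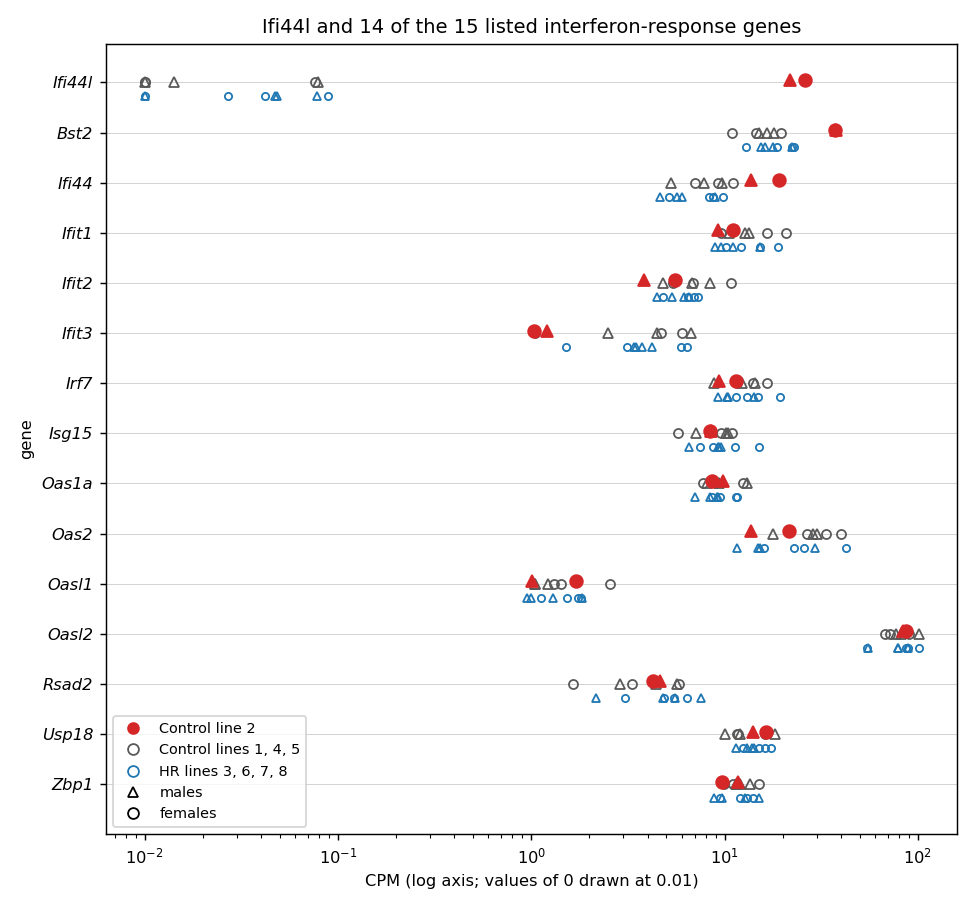
*Ifi44l* and 14 of the 15 listed interferon-response genes in CPM on a log axis, with symbols for line 2 (red), other Control (grey) and HR (blue) libraries. *Ifi44l* is the row where line 2 at 21.9 and 26.0 CPM is far from all others, and in the rows of *Oasl2* and *Usp18* the groups lie over each other.

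Further genes were nearly silent in the other Control lines. *4930481A15Rik*, a non-coding transcript of unknown role (chr19:5406740-5422847, plus strand), had 17.9 CPM in the male and 18.9 CPM in the female pool of line 2. The other Control libraries had 0.0636 to 0.158 CPM, with a median of 0.0733. Its log2 fold change was 7.65 ± 0.27 (SE; adjusted p of 6.74e-05), the smallest p of all genes, and it was the gene still called when either line 2 library was left out. The transcript runs antisense to the processed pseudogene *Gm6293*, with 153 shared exonic bases, and to *Drap1*, with 43. The strand setting of the counting is not given in the sources used here. HR line 8 also read it, at 16.1 CPM in males and 9.11 CPM in females, whereas the other HR libraries stayed at 0.0708 to 0.843 CPM. *1500009C09Rik*, a gene of unknown role (chr15:82252397-82260753), had 4.31 and 3.91 CPM in the male and female pools of line 2, 0 to 0.118 CPM in the other Control lines and 0 to 0.147 CPM in HR lines. Its summed CPM ratio was 55.0 (95% counting interval 35.0 to 91.3). *Gsg1l*, an auxiliary subunit of AMPA-type glutamate receptors (chr7:125878420-126082411), had 7.07 and 4.22 CPM in line 2, 0.263 to 0.433 CPM in the other Control lines and at most 0.507 CPM in HR lines. Its log2 fold change was 3.94 ± 0.29 (SE; adjusted p of 0.00383). For all 3 of these genes the line 2 pools lay well clear of the Control range.

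Both called intergenic RNAs were higher in line 2. *Gm17750* (chr13:84025297-84064772) had 1.72 and 2.16 CPM in the male and female pools, against 0.0636 to 0.326 CPM. *2700054A10Rik* (chr17:13482553-13668891) had 48.8 and 42.3 CPM, against 3.66 to 10.1 CPM, and HR line 6 came up to 56.2 CPM in males and 27.7 CPM in females. Of the 75-base windows of *2700054A10Rik*, 36.3% also occur in transcripts of other annotated genes, so its level is uncertain.

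A stretch of chromosome 8 held 3 called genes, all higher in line 2. *Comp*, a cartilage matrix protein (chr8:70373558-70382066), had 9.61 CPM in the male and 11.2 CPM in the female pool and 2.59 to 5.01 CPM in the other Control lines. *Tmem59l*, a membrane protein of neurons (chr8:70483867-70487358), had 31.4 and 24.1 CPM against 5.92 to 8.49 CPM. *Tmem221*, a membrane protein of unknown role (chr8:71554238-71558871), had 6.27 and 4.89 CPM against 0.455 to 0.826 CPM. In each case the 2 pools of line 2 lay above all 6 other Control libraries and all 8 HR libraries. The log2 fold changes were 1.54 ± 0.17, 1.89 ± 0.17 and 3.03 ± 0.21 (SE), with adjusted p-values of 0.0262, 0.0085 and 0.00337. From the start of *Comp* to the end of *Tmem221*, 1.19 Mb apart, 50 genes were tested, and at an unadjusted p under 0.05 line 2 was higher for 14 and lower for 0 of them. The called genes set the ends of this stretch, which was drawn after the calls were seen, and are among the 14. Under the planned rule of at most 1 Mb between starts, only *Comp* and *Tmem59l* were joined, 0.11 Mb apart. Without them 11 of 47 genes (23.4%) remain, against 9.14% of all genes in either direction. *Bst2* is one of these. The other 10 genes of the cartilage and bone list were not called, the list had a median log2 fold change of -0.59, and its summed level was 512 CPM in the male and 360 CPM in the female pool against 396 to 1210 CPM, so *Comp* did not move with its list.

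The next higher genes were read in every Control library. *Trim67*, a neuronal ubiquitin ligase (chr8:124793092-124834713), had 10.7 and 12 CPM in the male and female pools of line 2 and 3.21 to 4.14 CPM in the other Control lines. *Rsph9*, a radial spoke protein of motile cilia (chr17:46122035-46144216), had 126 and 110 CPM against 29.3 to 47.9 CPM. *Rsph9* was not on the motile cilia list, of which 0 of 15 tested genes were called and the log2 fold changes ran from -1.72 to -0.04. *Sgpp2*, a phosphatase of sphingosine 1-phosphate (chr1:78310345-78420289), had 210 and 209 CPM against 107 to 129 CPM. The log2 fold changes of these genes were 1.66 ± 0.15, 1.55 ± 0.15 and 0.85 ± 0.09 (SE), with adjusted p-values of 0.0085, 0.011 and 0.0175.

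Among the 5 lower genes, *Tmed2*, a cargo receptor of vesicles between endoplasmic reticulum and Golgi (chr5:124540695-124550506), fell the most. It had 3.88 CPM in the male and 2.83 CPM in the female pool of line 2, while the other Control libraries had 26.8 to 46.9 CPM with a median of 31.3. Its log2 fold change was -3.31 ± 0.29 (SE; adjusted p of 0.0085). HR line 3 was the nearest, at 18.4 CPM in males and 8.89 CPM in females. Alignment allowed no mismatch and no second location, and 20.9% of the 75-base windows of *Tmed2* also occur in *Gm10698*. Their part in the low count was not tested. Within 1 Mb of *Tmed2*, 13 of 38 other genes were lower and 1 higher at an unadjusted p under 0.05 (36.8%, against 9.14% of all genes). *Slc15a2*, the peptide transporter PEPT2 (chr16:36750177-36784962), had 7.39 and 7.57 CPM in line 2 and 37.7 to 79.0 CPM in the other Control lines. HR line 8 was lower still, at 5.42 CPM in males and 3.64 CPM in females. *Cep250*, a centrosome linker protein (chr2:155956458-155998900), had 62.5 and 95.9 CPM against 181 to 267 CPM. *Cacna1e*, the pore subunit of R-type calcium channels (chr1:154390731-154884501), had 0.523 and 1.03 CPM against 3.03 to 9.22 CPM. Both were also low in HR lines 6, 7 and 8, at 67.4 to 100 CPM for *Cep250* and 0.544 to 1.05 CPM for *Cacna1e*. *Epb4.1*, a protein of the membrane skeleton (chr4:131923413-132075321), had 68.8 and 63.0 CPM against 100 to 112 CPM, and HR line 8 had 70.3 and 66.5 CPM. The log2 fold changes of these 4 genes were -3.05 ± 0.33, -1.54 ± 0.17, -2.89 ± 0.36 and -0.72 ± 0.09 (SE), with adjusted p-values of 0.0226, 0.0226, 0.0462 and 0.0416. With the line as a random effect, all 12 calls were higher and none of these 5 genes was called, with adjusted p-values of 0.071 for *Tmed2*, 0.082 for *Cep250* and 0.157 to 0.222 for the rest. *Cep250* shares 11.1% of its exonic bases with *6430550D23Rik* on the opposite strand.

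Among the 20 genes, 10 stayed called whichever single library of lines 1, 4 and 5 was left out. These were *Ifi44l*, *4930481A15Rik*, *1500009C09Rik*, *Tmem221*, *Gsg1l*, *Vmn2r110*, *Tmed2*, *Tmem59l*, *Fpr-rs4* and *Trim67*. Without both pools of line 5, *Gsg1l*, *Vmn2r110*, *Tmem59l* and *Trim67* reached adjusted p-values of 0.0538, 0.0715, 0.0585 and 0.071, *Trim67* reached 0.0502 without line 4, and *Fpr-rs4* reached 0.0591 without line 1. With single libraries left out, *Rsph9* and *Slc15a2* lost the call only without the line 5 male pool, at adjusted p-values of 0.0506 and 0.0673. *Cep250* lost it without either line 1 pool or the line 4 female pool (0.0518 to 0.0618). *Sgpp2* lost it without the line 1 female, either line 4 pool or the line 5 male (0.0508 to 0.0836), *Gm17750* without the same pools (0.0913 to 0.127), and *2700054A10Rik* without any pool of lines 1 or 4 (0.0677 to 0.119). *Comp*, *Epb4.1* and *Cacna1e* kept the call only when the line 5 female pool was the one left out, and otherwise reached 0.0548 to 0.102, 0.0586 to 0.107 and 0.0673 to 0.103.

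On the RPKM scale, which is per length and lets genes be set beside each other, *Rsph9* was the most abundant called gene of line 2, with 162 RPKM in males and 148 in females. *Sgpp2* followed with 60.5 and 63.6 RPKM. *Ifi44l* reached 15.5 and 18.8 RPKM, near *Vmn2r110* with 18.1 and 21.3 RPKM. *Cacna1e* was the lowest, with 0.0379 and 0.088 RPKM.

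Of 285 vomeronasal receptors tested, 2 were called, both higher in line 2 and both on chromosome 17. *Fpr-rs4*, a formyl peptide receptor of vomeronasal neurons (chr17:18021733-18022704, plus strand), had 124 counts in the male and 39 in the female pool of line 2, which is 2.31 and 2.01 CPM. The other Control libraries held 0 to 4 counts each, or 0 to 0.101 CPM. The summed CPM ratio was 38.9 (95% counting interval 22.9 to 71.1), and the log2 fold change was 5.21 ± 0.47 (SE; adjusted p of 0.0085). *Vmn2r110*, a V2R pheromone receptor (chr17:20567760-20596423, minus strand), had 46.8 and 53.0 CPM in line 2, against 0.92 to 3.19 CPM with a median of 2.37. Its log2 fold change was 4.43 ± 0.35 (SE; adjusted p of 0.00481). Neither gene was particular to line 2, since the 8 HR libraries ranged from 1.76 to 3.42 CPM for *Fpr-rs4* and from 31.7 to 55.5 CPM for *Vmn2r110*, around the values of line 2. Line 2 was thus the Control line at the HR level for both. Reads of *Vmn2r110* are partly shared, as 13.4% of its 75-base windows occur in other annotated transcripts.

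More receptors of the same chromosome shifted in both pools without passing the test. Of its 51 tested receptors, 14, among them both called genes, lay above in both pools and 3 below. The lowest log2 fold change there was -1.82, for *Vmn2r99*. Among all receptors the lowest was -7.03, for *Vmn2r45* on chromosome 7, where none was called. *Fpr3*, another formyl peptide receptor, had 12 CPM in the male and 14.9 CPM in the female pool of line 2, against 0.632 to 6.22 CPM in the other Control lines and 10.4 to 17.7 CPM in HR lines, with an adjusted p of 0.353. *Vmn2r102*, *Vmn2r98* and *Vmn2r106* were picked after their values were seen, being the other receptors for which line 2 lay beyond by at least 1 log2 unit in both pools. *Vmn2r102* had 30.4 and 37.7 CPM against 1.79 to 7.63 CPM in the other Control lines and 28.0 to 36.5 CPM in HR lines (adjusted p of 0.139). *Vmn2r98* had 17.3 and 22.3 CPM against 2.68 to 6.17 CPM, with 3.68 to 37.0 CPM in HR lines (adjusted p of 0.127). *Vmn2r106* had 5.66 and 8.96 CPM against 0.263 to 2.49 CPM, with 0.477 to 11.7 CPM in HR lines (adjusted p of 0.522). All 3 are V2R genes. HR line 3 lay within the Control range for *Vmn2r106*, at 0.661 and 0.477 CPM, and so did its male pool for *Vmn2r98*, at 3.68 CPM.

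**Figure D3:**
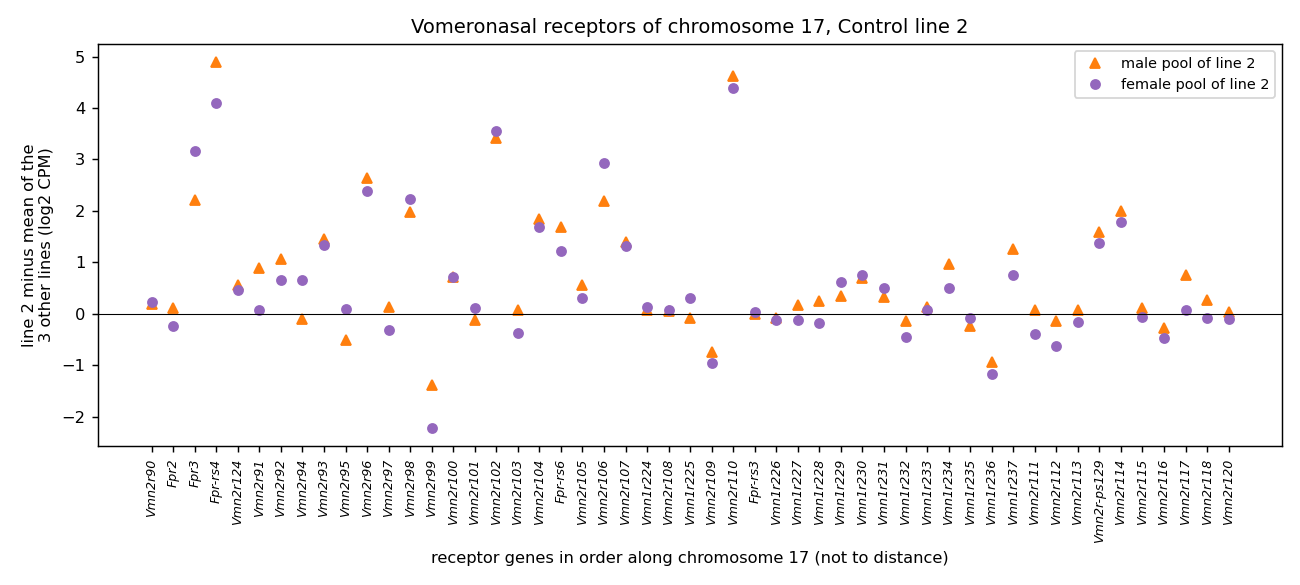
Shift of line 2 from the mean of the 3 other Control libraries of its table (log2 CPM) for the 51 tested receptors of chromosome 17, in gene order. Male and female symbols lie close together for most genes, and *Fpr-rs4* and *Vmn2r110* stand highest at 4.1 to 4.89.

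Over all 285 receptors, line 2 lay above the other Control libraries in both pools for 68 and below in both for 12. That is 23.9% above and 4.21% below, while of all 16852 genes 2367 (14.0%) lay above and 1685 below in both pools. Both directions together came to 28.1% of receptors and 24.0% of all genes. At an unadjusted p under 0.05, 32 receptors were higher and 14 lower (16.1% against 9.14%), and the median log2 fold change was 0.21 against 0.00. By family, 18 of 158 V1R genes were higher and 6 lower, and 12 of 122 V2R genes were higher and 8 lower. The summed receptor level was 8730 CPM in the male and 8320 CPM in the female pool, inside the Control range of 6360 to 9100 CPM. In bulk tissue, a change in the number of neurons that use a receptor and a change in RNA per neuron cannot be told apart. For *Fpr3*, the paper counted neurons by in situ hybridization in females. It reported significantly more *Fpr3* neurons in line 2, while the signal was barely seen in the other Control lines. It could not distinguish the signal per neuron between HR and Control lines. Other receptors were not stained there. Without both libraries of Control line 4, 9 receptors were called.

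The pools of line 2 held different animals and stand in different tables, so the second pool can be read against the first. Across all genes tested, 4052 (24.0%) lay beyond the other Control libraries in the same direction in both tables, 2367 above and 1685 below. In opposite directions there were 611 (3.63%). With a gap of at least 1 log2 unit in both tables, 78 genes (0.463%) remained, 40 above and 38 below. Of these, 23 averaged under 1 CPM in both groups, and 18 lay on chromosome 17, where 884 genes were tested. Genes chosen in a single table by a gap of at least 1 were then read in the other. Of 65 genes above by at least 1 in males, 55 were above in females (84.6%, against 23.8% of all genes). Of 118 below in males, 86 were below in females (72.9%, against 24.4%). Of 84 above in females, 68 were above in males (81.0%, against 30.3%). Of 302 below in females, 141 were below in males (46.7%, against 22.1%), and the female library is the shallower of the pair. Of receptors above by at least 1, 5 of 5 kept their side from males to females and 9 of 9 from females to males. The shares for all genes chosen in this way were 84.6% and 81.0%, and nothing particular to receptors is read from such small counts. Of receptors below by at least 1 in females, 2 of 4 were below in males, against 46.7% of all genes chosen in this way. Library composition is shared by all genes of a pool, and its part in these counts was not tested.

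**Figure D4:**
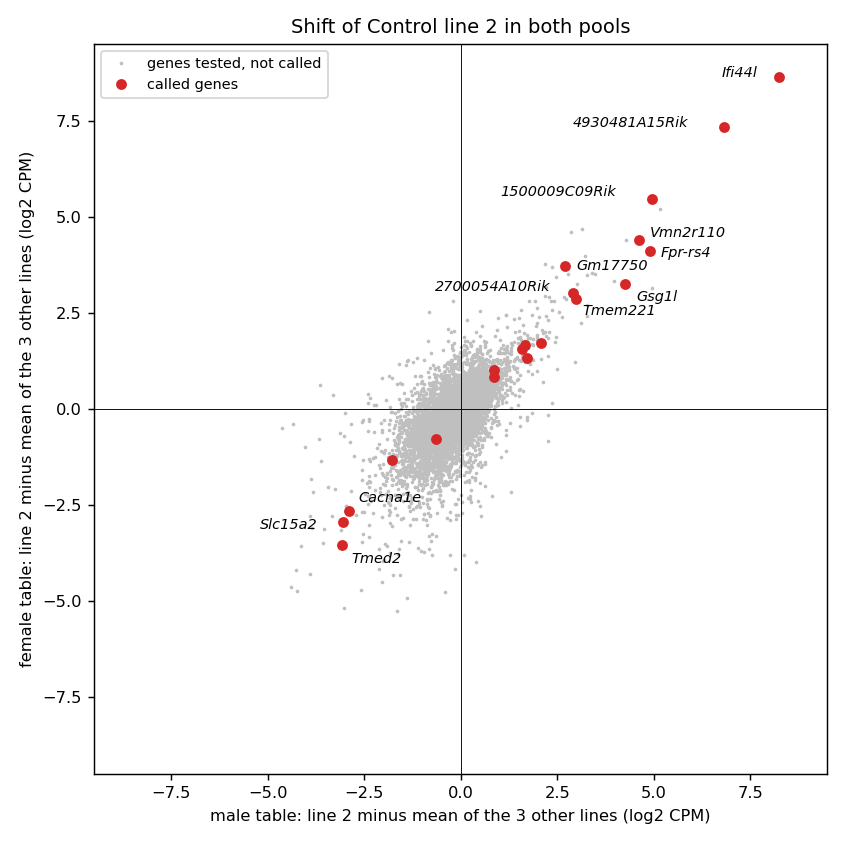
Shift of line 2 from the mean of the 3 other Control libraries (log2 CPM) in the male table (x axis) and the female table (y axis), 1 point per tested gene. The 20 called genes (red) lie near the diagonal, from *Ifi44l* at 8.25 and 8.63 to *Tmed2* at -3.07 and -3.53. Their call came from the same libraries and favours genes near the diagonal.

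No sex difference in the shift of line 2 was detected, with 0 genes called for the interaction by edgeR (40 at an unadjusted p under 0.05) and 0 by DESeq2 (38). With 1 pool per sex and line this test can show only large differences. For the 20 called genes, the female shift minus the male shift ran from -1.07 to 1.11 log2 units, and none had an unadjusted p under 0.05. These genes were called in the same libraries by a fit that favours agreement between the pools, so nothing is read from this range.

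Set beside the HR lines, 13 of the 20 called genes had both line 2 pools beyond all 7 other libraries of their table. This held for 6.38% of all genes tested and for 26.5% of the 4052 that already lay beyond the other Control libraries in both pools, as all 20 called genes did, and nothing is read from these shares. With a margin of at least 0.5 log2 units there were 9. The 13 include *4930481A15Rik*, *Cep250* and *Epb4.1*, for which HR lines also lay near line 2, so they are not all particular to it. Of the 20, 10 had at least 1 HR line nearer to line 2 than to the other Control lines in both sexes. For *Fpr-rs4* and *Vmn2r110* these were all 4 HR lines, for *Cep250* and *Cacna1e* lines 6, 7 and 8, for *Rsph9* lines 6 and 7, and for *Slc15a2* lines 6 and 8. *4930481A15Rik* and *Epb4.1* were shared with HR line 8 and *2700054A10Rik* with HR line 6. The other 10, among them *Ifi44l*, *1500009C09Rik*, *Gsg1l*, *Tmem221*, *Tmem59l*, *Trim67*, *Sgpp2* and *Tmed2*, had no HR line nearer to line 2.

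The genes around the called ones were counted in the same contrast. Of 615 other tested genes that start within 1 Mb of a called gene, 94 (15.3%) passed the unadjusted threshold of 0.05, while 8.81% of the 16007 genes elsewhere did. Line 2 lay beyond in both tables for 30.2% of the near genes and 23.7% of the others. Around *Slc15a2* none of 21 neighbours had such a p, and around *Gm17750* none of 5.

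Lists of other genes gave few calls. Of 22 lists, the receptor list and the cartilage list held called genes and the others held 0. The share at an unadjusted p under 0.05 was 9.14% over all genes and stands in parentheses for the lists that follow. Of 9 nonclassical MHC (*H2-Mv*) genes, which V2R neurons express, 3 were lower at this p and none higher (33.3%), among them *H2-M10.3* with 211 and 173 CPM against 264 to 367 CPM (adjusted p of 0.269). Of 27 classical MHC genes, 3 were higher and 1 lower (14.8%). *H2-Bl*, a class I gene listed as a polymorphic pseudogene, had the smallest p of this list, with 8.04 and 6.69 CPM against 1.21 to 3.13 CPM (adjusted p of 0.175). *H2-D1*, a class I antigen-presenting molecule, had 34.9 and 20.1 CPM against 53.0 to 133 CPM (adjusted p of 0.361). Of 46 odorant receptors tested, 1 was higher and 6 were lower (15.2%), and *Olfr692* had 1.72 and 2.27 CPM against 7.77 to 71.3 CPM (adjusted p of 0.361). Of 76 genes of xenobiotic metabolism, 7 were higher and 13 lower (26.3% at this p). Their median log2 fold change was -0.24. *Gstp1*, a glutathione transferase, had 79.0 and 59.2 CPM against 14.3 to 39.0 CPM (adjusted p of 0.29), and *Cyp1a2*, a drug-metabolizing cytochrome, had 0.0373 and 0 CPM against 0.0694 to 8.34 CPM (adjusted p of 0.531). Of 353 zinc finger genes, 3 were higher and 10 lower (3.68%).

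Markers of the cells in the tissue were summed per library. The G proteins of the 2 main neuron classes lay within the Control range or near it, *Gnai2* at 1480 and 1140 CPM within 715 to 1540 CPM and *Gnao1* at 425 and 457 CPM beside 304 to 442 CPM. Mature neuron markers came to 5840 CPM in the male and 5000 CPM in the female pool of line 2, against 3280 to 5650 CPM. Supporting cell markers came to 1660 and 1360 CPM against 1660 to 2010 CPM. Gland secretion genes came to 25200 and 19600 CPM within 10600 to 208000 CPM. Immune markers came to 86.0 and 101 CPM within 81.8 to 347 CPM, and motile cilia genes to 166 and 199 CPM within 155 to 393 CPM. For mature neuron markers the male pool of line 2 thus lay above the Control range and the female pool within it. That range mixes both sexes. Against the other Control libraries of the same table, *Omp* lay above in both pools (adjusted p of 0.545). *Gnai2* and *Gnao1* did so in the female pool only. Of the 10 mature neuron markers tested, 2 lay above in both pools and 0 below, with a median log2 fold change of 0.17. For supporting cell markers the female pool lay below the Control range and the male pool at its low end. The part of tissue makeup in the shifts was not tested.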

How the data were processed

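Vomeronasal organs of 3 mice were pooled per line and sex, and rRNA-depleted directional libraries were read as 75-base single ends. Per the labels, the authors aligned with STAR 2.6.1d to GRCm38/mm10 and used Cufflinks for RPKM; per the study's methods, no mismatch and no second location were allowed, so reads over a base that differs from the reference are lost. The authors deposited raw counts per gene and RPKM per gene, in 1 table per sex. The counting tool and its strand setting are not given in the sources used here. In the 8 male libraries, 4 rows that name no gene held 34.9% to 37.3% of reads and were left out.

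Both count tables were joined by gene name (24407 genes, 4 entries with repeated names left out). edgeR 4.0.16 (TMM, filterByExpr with a minimum count of 10, quasi-likelihood test with table and line 2 as terms, Benjamini-Hochberg adjustment) was fitted to the 8 Control libraries with 5 residual degrees of freedom, in R 4.3.3. CPM use TMM factors over 16 libraries, log2 CPM a prior count of 2. Intervals cover counting error only. Alternatives were DESeq2 1.42.0, limma 3.58.1 and others given below. The test was tested on simulated data. Nothing says that a line's pools replicate a treatment. The p-values weigh the shift of line 2 against the residual spread between libraries, within and between lines. They count the 2 pools of a line as separate, although pools of a line resembled each other. An exact permutation of line 2 against the other 3 lines cannot go below 0.25. Coordinates are GENCODE M21 (GRCm38), promoters RefSeq. Named were the 10 highest and 10 lowest called genes with both pools beyond and at least 1 CPM, the called or smallest-p genes of each list, and *Fpr3*, *Fpr-rs4*, *Omp*, *Trpc2*, *Gnao1* and *Gnai2*; called genes outside this rule (*Trim67*, *Rsph9*, *Sgpp2*) and others marked in the text were added after their values were seen. Values are printed for part of the named list genes, and 1 called gene is not reported here. The contrast, lists and rules were chosen with earlier results of these data known.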

Additional observations from a re-analysis of the deposited data

Results flagged for a closer look

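In 40 groups examined (20 called genes, each in the 6 other Control and the 8 HR libraries), 3 had a library whose gap to its nearest neighbour was a large part of the group's range. Chance flags about 1 in 20 groups. *Tmem59l* was low in the HR line 3 male pool, at 5.79 CPM against 8.34 to 11.6 CPM in the other HR libraries (gap 0.528 of the range on the log2 scale). *Cep250* was high in the HR line 3 female pool, at 180 CPM against 67.4 to 101 CPM (0.592 of the range on the log2 scale). *Fpr-rs4* was at 0 in the Control line 5 male pool, against 0.0525 to 0.101 CPM in the others (0.649 of the range on the log2 scale), a gap that rests on 4 counts or fewer per library. No sample of line 2 enters these groups.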

How the results depend on the processing

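None of the 20 called genes changed direction under any alternative run. Against 20 genes called and 2 receptors, DESeq2 called 278 genes (144 higher, 134 lower) with 19 receptors, a term for each line 200 with 38, all 16 libraries in the fit 47 with 6, no table covariate 42 genes, limma-voom with a random term for the line 12 genes, and edgeR on line sums 0 genes with 0 receptors. Leaving out 1 library at a time gave 1 to 31 genes and 0 to 2 receptors: 1 without the line 2 male, 2 without the line 2 female, 13 without the Control line 4 female and 31 without the Control line 5 female. Leaving out whole lines gave 32 genes without line 1, 11 with 1 receptor without line 5, and 9 receptors without line 4. Of the 20 genes, 10 were called whichever 1 other Control library was left out, 5 whichever other line was, and 20, 20, 18 and 13 under DESeq2, a term for each line, limma on log2(RPKM + 1) and the 16-library fit. Genes beyond in both pools numbered 7694 without line 1, 5691 without line 4 and 5614 without line 5, against 4052 with all lines. A left-out line leaves fewer libraries to lie beyond, which by itself raises this count. A female library of 18475375 counts limits what can be seen in genes under 1 CPM. The labels give no replicate numbers that pair line 2 with another line. The male and female pools of a line were linked only in the fits with a random term or a fixed term for the line and in the line sums, which merged them.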
